A study of Mus musculus with 70 samples.

Results

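The kidney route of serial passage was examined at its ends: the 5 samples labelled KPT P1 and the 5 samples labelled KPT P6 of the first array set, which were chosen by their titles and make up 10 of the 70 arrays (65 RNA samples) of the series. RENCA is a renal adenocarcinoma line from BALB/c mice. For this series the line had been given a green fluorescent protein (GFP) gene by a lentivirus, so the P1 cells, the P6 cells and the unpassaged P0 cells share that insertion. Per the methods, the host was a wild type female BALB/c mouse aged 6 weeks, cells were placed beneath the capsule of its left kidney, the resulting tumour was digested with collagenase, and the cells were cultured for about 2 weeks until GFP-negative cells were no longer seen, then injected again or collected. KPT (kidney primary tumour) P1 cells had been through this cycle once and P6 cells 6 times, with no other treatment or engineered allele separating them. The comparison asks which genes differ between the first and the last sub-lines of a route that was set up to yield progressively more aggressive cells. The labels give the source as a tumour grown after kidney implantation and describe homogenised samples, whereas the methods describe cultures, and neither says which mouse each sample came from, so p-values measure the spread between these samples only.

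An implanted renal tumour holds cancer cells together with recruited macrophages, fibroblasts and vessels. Inflamed epithelial cells switch on acute phase proteins, which bind iron, haem or lipids or block proteases, and chemokines, which draw in neutrophils and monocytes. Many of these genes are driven by the transcription factor NF-kB, which also switches on its own inhibitors, and by STAT3, downstream of interleukin 6. Renal carcinoma is also known for hypoxia-inducible factor (HIF) and its targets in glucose uptake and glycolysis, since loss of the VHL protein leaves HIF active. Cancer-testis genes, many of them on the X chromosome, are normally silent outside germ cells and are often switched on in tumours.

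Levels are log2 signals relative to each array, on which 0 is the 75th percentile of the probes detected on all arrays and a difference of 1 is a 2-fold difference. A gene was called at a limma adjusted p of 0.01 or less. Between 27.6% and 41.6% of the probes were well above background on the P1 arrays and between 31.5% and 35.0% on the P6 arrays. The epithelial line was recognisable in every sample, since the simple epithelial keratins Krt8 and Krt18 and the kidney transcription factor Pax8 were well above background on all 10 arrays, whereas Pax2 was above background on no array. The 7 tested genes of the renal epithelial line held no called gene, with 1 at an unadjusted p under 0.05 in limma.

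The P1 samples were not alike. Over 22029 probes, replicates 1 and 2 correlated at r = 0.987 with each other and replicates 3 to 5 at 0.978 to 0.985, but the pairs across these sets reached 0.948 to 0.977, while P6 samples correlated at 0.979 to 0.992. Adgre1, which encodes the macrophage surface protein F4/80, had levels of -7.49, -7.53, -3.65, -3.91 and -4.12 in P1 replicates 1 to 5 and between -9.28 and -8.58 in P6. It was well above background only in P1 replicates 3, 4 and 5. Of the 16 macrophage markers on the array, 8 to 11 were above background in P1 samples and 7 to 9 in P6 samples, their summed level was 2.14 to 2.88 in P1 and 1.66 to 2.13 in P6, and Fcgr1, Cd163, Marco, C1qa and C1qb were above background on none of the 10 arrays. The summed level of the 13 fibroblast markers was -0.17, -0.05, 1.22, 3.51 and 3.01 in P1 replicates 1 to 5 and -0.39 to 0.62 in P6. None of the 13 tested macrophage markers and none of the 12 tested fibroblast markers was called in limma, with 7 and 1 of them at an unadjusted p under 0.05, all lower at P6. The comparison was therefore repeated without P1 replicates 3 to 5, a choice made after these values were seen, and of 126 called genes followed through that fit 65 were no longer called. That fit keeps only P1 replicates 1 and 2, and fewer samples can by themselves end a call. Leaving out replicates 1 and 2 instead ended the calls of 30 of 126 followed genes. The part of the smaller sample number in these losses was not tested. In bulk samples, fewer cells of a type and less RNA per cell cannot be told apart.

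Of 12214 gene symbols tested, 1490 (12.2%) were called between P1 and P6. At P6, 615 (5.04%) were higher and 875 (7.16%) were lower, and 4513 had an unadjusted p under 0.05. The change was over 2-fold for 301 of the higher and 404 of the lower genes. The 5 P1 and the 5 P6 values did not overlap for 579 of the higher and 784 of the lower genes, against 20% of all tested symbols. Counted as probes, 2577 of 22029 (11.7%) were called, 1008 (4.58%) higher and 1569 (7.12%) lower. The balance between the directions depended on the scaling: 39.1% of the called probes were higher here, 61.1% with the 75th percentile over all probes, 49.7% with the median of the detected probes, 28.8% after normexp background correction, 54.7% in the values deposited for the series and 55.6% after quantile normalization. The median of all probes moved from -0.09 to 0.08 between the first pair of scalings. Without P1 replicates 3 to 5, 780 probes were higher and 557 lower.

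**Figure D1:**
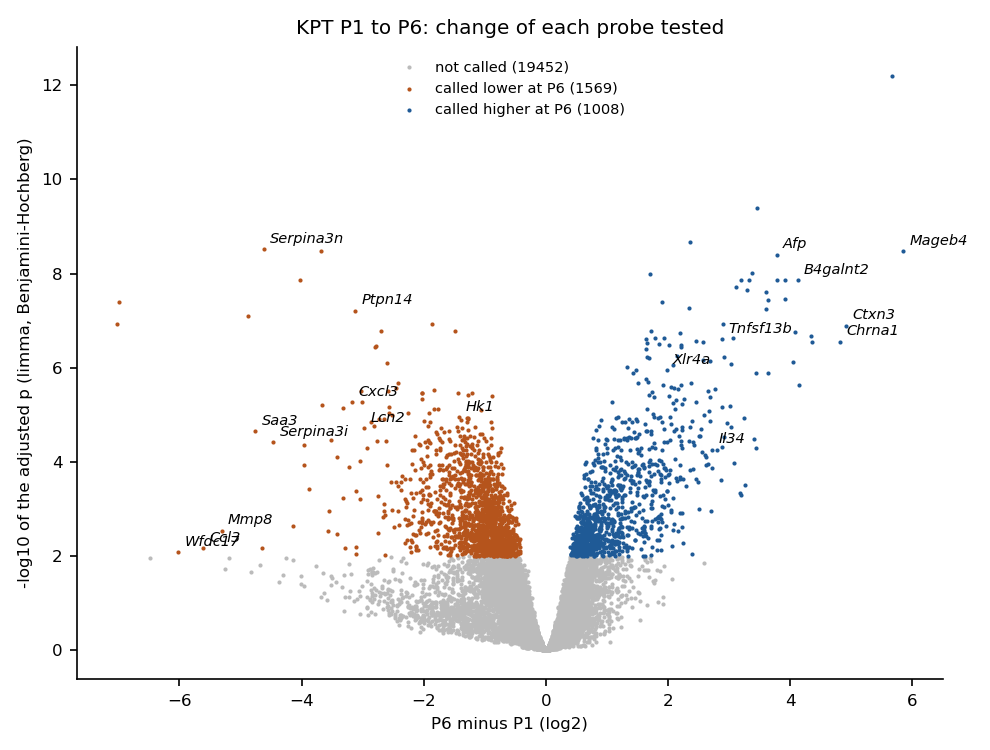
Change from KPT P1 to KPT P6 of each of the 22029 tested probes (x axis, log2) against the -log10 of its limma adjusted p (y axis), with 1008 probes called higher in blue, 1569 called lower in orange and the others in grey. The falls of Wfdc17, Ccl3 and Mmp8 lie lower on the y axis than the rises past 4 of genes with a symbol and have larger standard errors.

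Slides were shared in part. P1 replicate 1 and P6 replicate 3 lay on one slide, P1 replicate 2 and P6 replicate 4 on another, and P1 replicate 3 and P6 replicate 5 on one more. With slide as a fixed block, which leaves 2 residual degrees of freedom among the 10 arrays, limma called 0 of 20930 probes and 7683 had an unadjusted p under 0.05, whereas with slide as a random block 3169 probes were called.

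Most of the tested acute phase genes fell. Of the 14 tested members of a list of acute phase proteins, 9 were lower at P6 (7.16% of all tested symbols were), the other 5 were not called, and the median change was -2.63 against -0.11 over all symbols. Saa3, a serum amyloid A apolipoprotein made by inflamed epithelium and macrophages, had levels of -0.27, -0.23, 0.85, 0.94 and 1.47 in P1 replicates 1 to 5 and of -3.41, -3.91, -4.36, -4.54 and -4.82 in P6 replicates 1 to 5. Every P1 value lay above every P6 value, and replicates 3 to 5 were the highest of P1. The fitted change was -4.76 ± 0.61 (log2, SE; 27.1-fold lower; adjusted p = 2.2e-05), and the within-slide differences were -4.08, -4.31 and -5.68. Saa1, its liver-type relative, stood at -2.58, -2.68, -1.27, -1.36 and -0.54 in P1 and at -5.83 to -4.95 in P6, a change of -3.67 ± 0.42 (adjusted p = 6.07e-06). Saa2 was above background on 2 P1 arrays and on no P6 array, so its fall was at least 2.05-fold (adjusted p = 5.43e-06). Without P1 replicates 3 to 5 it was above background on too few arrays to be tested. Its call ended when dim signals were raised to the lowest signal above background.

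Serpina3n, a secreted inhibitor of serine proteases related to human antichymotrypsin, differed in its pattern within P1. Its levels were -3.86, -4.03, -4.50, -5.11 and -4.53 in P1 and -8.72, -8.91, -9.30, -9.38 and -8.78 in P6. Here P1 replicates 1 and 2 were the highest, and no P6 array was above background. The fall was at least 5.65-fold (adjusted p = 3e-09), and without P1 replicates 3 to 5 the fitted change was -5.08 (adjusted p = 7.35e-08). Its neighbours in the same gene cluster moved the same way. Serpina3i fell at least 9.93-fold (adjusted p = 3.81e-05) and Serpina3f by 3.87 on the log2 scale (14.6-fold, adjusted p = 0.000375). Serpina3f was no longer called without P1 replicates 3 to 5 (-3.11, adjusted p = 0.0308). Cross-hybridisation within this multigene family was not tested.

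The haemoglobin-binding protein haptoglobin, Hp, was at -5.36, -5.57, -3.69, -2.27 and -2.04 in P1 and above background on no P6 array, a fall of at least 8.58-fold (adjusted p = 0.0023). Lcn2, lipocalin 2, which starves bacteria of iron by binding siderophores, stood at 2.89, 3.13, 4.28, 3.84 and 3.71 in P1 and at 0.73, 1.39, 0.26, 0.30 and 0.30 in P6. All 5 P1 values exceeded all P6 values, and the change was -2.97 ± 0.38 (adjusted p = 1.92e-05). Lrg1, a secreted leucine-rich glycoprotein, fell by 1.80 and the copper-carrying ferroxidase Cp by 1.03. Without P1 replicates 3 to 5, 7 of 13 tested members were lower, with a median of -1.46. Among those that lost the call was Hp (-2.46, adjusted p = 0.15). The acid glycoproteins Orm1, Orm2 and Orm3 had changes of -0.56, -0.78 and -0.42 and the inter-alpha-trypsin inhibitor chain Itih4 one of 1.25, and none of these was called.

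**Figure D2:**
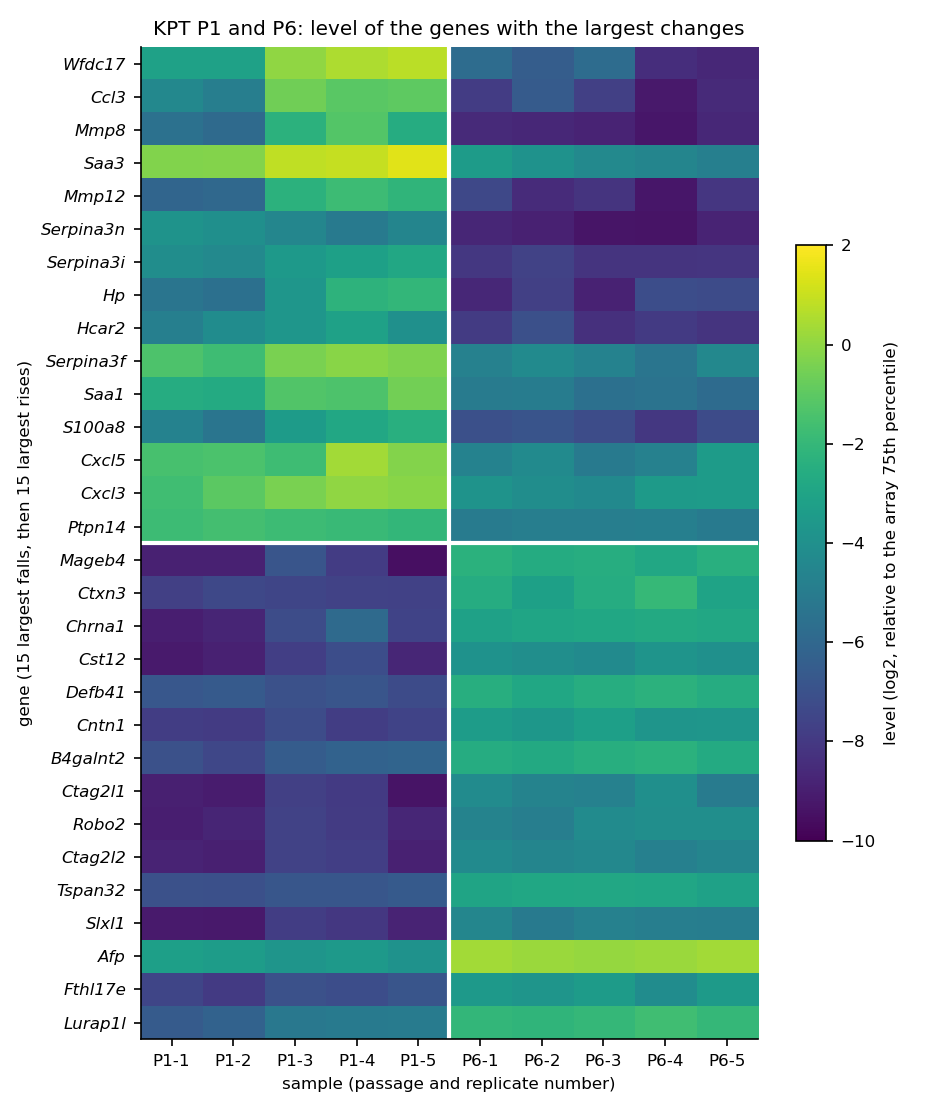
Level (colour, log2 relative to each array's 75th percentile) of the 15 genes with the largest falls and the 15 with the largest rises among called genes with an established name whose groups do not overlap (rows) in each of the 5 KPT P1 and 5 KPT P6 samples (columns). Wfdc17, Ccl3, Mmp8 and Mmp12 are brighter in P1 replicates 3 to 5 than in replicates 1 and 2, whereas Serpina3n and Ptpn14 are bright in all 5.

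Among called genes with an established name, the falls of largest fitted size included genes known from activated macrophages and neutrophils. Wfdc17, a small WAP-domain protein of activated macrophages, had levels of -3.11, -3.13, -0.01, 0.55 and 0.75 in P1 and of -5.74, -6.47, -5.75, -8.42 and -8.66 in P6. P1 replicates 3 to 5 stood more than 3 log2 units above replicates 1 and 2, which in turn stood above every P6 sample. Its change was -6.02 ± 1.55 (64.8-fold, adjusted p = 0.00836). Leaving out P1 replicates 3 to 5 made it -3.89 (adjusted p = 0.249). Ccl3, the monocyte-attracting chemokine MIP-1 alpha, was at -4.40, -4.88, -0.59, -1.07 and -0.96 in P1 and below the background threshold on every P6 array, a fall of at least 22.1-fold (adjusted p = 0.0067). The same split within P1 was present in the secreted proteases. Mmp8, neutrophil collagenase, fell at least 10.6-fold (adjusted p = 0.00286) and Mmp12, macrophage elastase, at least 9.53-fold (adjusted p = 0.00666). The changes of Ccl3, Mmp8 and Mmp12 without P1 replicates 3 to 5 were -3.35, -3.11 and -2.27, with adjusted p of 0.258, 0.18 and 0.334. Leaving out single samples ended the call of Wfdc17 and of Mmp12 for 8 of the 10 samples (all but P1 replicates 1 and 2), that of Ccl3 for 7 and that of Mmp8 for P1 replicate 4 alone. Mmp10, stromelysin 2, fell by 1.16 (adjusted p = 0.000726; 0.0257 without those replicates) from -1.04 to -0.33 in P1 to -2.10 to -1.35 in P6. In all, 3 of 20 metalloproteinases and inhibitors fell (7.16% of all symbols did), with a median change of -1.02. None was called in limma without P1 replicates 3 to 5, with a median of -0.09.

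Of 11 tested CC chemokines, 2 fell (7.16% of all symbols did), Ccl3 and Ccl5, with a median change of -1.80. Ccl5, an attractant of T cells, had 5 close P1 values between -5.24 and -4.52 and P6 values between -6.65 and -6.04, a change of -1.54 ± 0.29 (adjusted p = 0.000802), or -1.52 (adjusted p = 0.0172) without P1 replicates 3 to 5. Larger fitted changes that were not called stood beside it. Ccl6 (-5.25, adjusted p = 0.0192) was at -1.55, -1.43, 1.93, 2.52 and 1.81 in P1, and Ccl9 (-5.18, adjusted p = 0.0112) at -3.83, -3.49, -0.47, 0.64 and 0.16. Both are named here after their values were seen, because their P1 samples split as those of Adgre1 did. The part of the macrophage markers in the results for these genes was not tested.

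**Figure D3:**
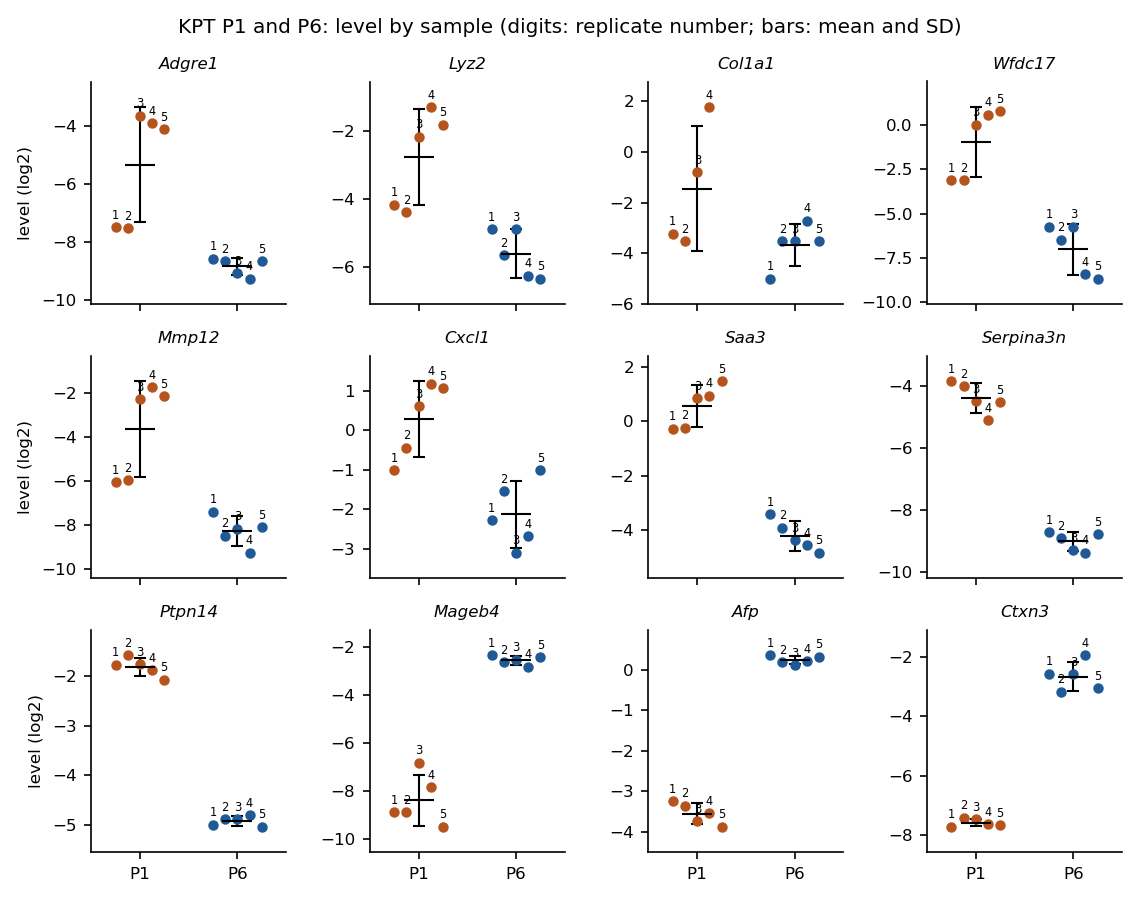
Level (y axis, log2) of 12 genes in each KPT P1 (orange) and KPT P6 (blue) sample, with the replicate number at each point and bars at the mean and SD. The macrophage genes Adgre1, Lyz2, Wfdc17 and Mmp12 separate P1 replicates 3 to 5 from 1 and 2, as does the collagen gene Col1a1 for replicates 3 and 4 (replicate 5 has no value there), while Ptpn14, Afp and Ctxn3 vary little within a group.

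Of 10 tested CXC and CX3C chemokines, 3 fell, the neutrophil attractants Cxcl1, Cxcl3 and Cxcl5, and the other 7 were not called. The median change was -2.20, or -0.77 with 2 of 9 genes lower when P1 replicates 3 to 5 were left out, and 7.16% of all symbols were lower. Cxcl3 had levels of -1.69, -1.03, -0.42, 0.02 and -0.13 in P1 and of -3.83, -4.13, -4.29, -3.46 and -3.40 in P6. The groups lay well apart, and the change was -3.17 ± 0.36 (9-fold, adjusted p = 5.39e-06). Cxcl5 was at -1.49, -1.42, -1.73, 0.34 and -0.24 in P1 and at -5.07 to -3.40 in P6, a change of -3.52 ± 0.46 (adjusted p = 3.45e-05). The calls of Cxcl3 (-2.46, adjusted p = 0.00107) and Cxcl5 (-2.97, adjusted p = 0.00168) held without P1 replicates 3 to 5. Cxcl1 was at -1.0, -0.44, 0.60, 1.18 and 1.06 in P1 and at -3.10 to -1.02 in P6, so that its lowest P1 value and highest P6 value nearly met. Its change of -2.40 ± 0.51 (adjusted p = 0.00219) became -1.40 (adjusted p = 0.159) without those replicates. S100a8, a calcium-binding protein abundant in neutrophils, fell at least 8.91-fold (adjusted p = 0.00287), and lost its call likewise (-2.29, adjusted p = 0.154).

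Genes of NF-kB signalling, many of them its inhibitors and partners, were examined next. Of 23 tested members of a list of NF-kB feedback genes and targets, 12 were lower (7.16% of all symbols were) and 11 were not called. The median change was -1.17. Nfkbia encodes the inhibitor that holds NF-kB in the cytoplasm and is itself an NF-kB target. Its levels were 0.61, 0.88, 1.24, 1.90 and 1.14 in P1 and -0.73, -0.16, -1.08, -0.81 and -0.15 in P6. Each P1 sample exceeded each P6 sample, with a fitted change of -1.74 ± 0.23 (adjusted p = 3.03e-05). Tnfaip3, the ubiquitin-editing enzyme A20 that ends NF-kB signalling, stood at -1.66, -2.13, -1.15, -1.05 and -0.89 in P1 and at -3.75, -3.27, -3.43, -3.59 and -2.83 in P6. This fall, -2.0 ± 0.30 (4-fold, adjusted p = 0.000116), was present on each shared slide, at -1.77, -1.46 and -1.68.

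Other negative regulators in the list moved the same way. The RNase Zc3h12a (regnase-1), which degrades cytokine mRNAs, fell by 2.18, the nuclear cofactor Nfkbiz by 2.06, the inhibitor Nfkbie by 1.22 and the ubiquitin ligase Birc3 by 1.54. Of the NF-kB subunits, Relb fell by 1.46 (P1 -2.61 to -1.31, P6 -3.49 to -2.96) and Nfkb2 by 0.98, while Nfkb1 (-0.84, adjusted p = 0.0172) and Rela (-0.41, adjusted p = 0.261) were not called. Sod2, the mitochondrial superoxide dismutase, was at 2.12 to 2.57 in P1 and 0.99 to 1.67 in P6. Bcl3, a nuclear partner of NF-kB p50 and p52, fell by 1.89 (adjusted p = 0.00184), and Ripk2, the kinase downstream of NOD receptors, and Tnfaip2 completed the 12. The cytokine gene Il1b had a change of -4.83 that was not called (adjusted p = 0.0222), with P1 levels of -7.57, -7.61, -1.73, -1.32 and -1.42. With P1 replicates 3 to 5 left out the list held 2 lower and 1 higher genes of 23, with a median of -0.74, whereas without replicates 1 and 2 it held 15 lower genes. The change of Tnfaip3 without P1 replicates 3 to 5 was -1.48 (adjusted p = 0.0169).

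Promoter windows of 4 of these genes are shown because 12 of 23 NF-kB feedback genes and targets fell and a match to the NF-kB consensus lies in each of them. The windows run from 250 bases before to 50 bases after a RefSeq transcription start (GRCm38.p6): Cxcl1 at chr5:90890995-90891294 and Cxcl3 at chr5:90785851-90786150 on the + strand, Nfkbia at chr12:55492598-55492897 and Tnfaip3 at chr10:19015361-19015660 on the - strand. Capitals mark matches on either strand, of which those of Cxcl1 and of Cxcl3 overlap.
Cxcl1: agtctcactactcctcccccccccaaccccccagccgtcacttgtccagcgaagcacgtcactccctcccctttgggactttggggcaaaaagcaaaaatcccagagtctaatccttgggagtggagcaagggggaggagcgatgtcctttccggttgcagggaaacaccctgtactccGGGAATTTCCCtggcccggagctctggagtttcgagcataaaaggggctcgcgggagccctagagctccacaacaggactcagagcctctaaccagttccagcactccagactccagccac
Cxcl3: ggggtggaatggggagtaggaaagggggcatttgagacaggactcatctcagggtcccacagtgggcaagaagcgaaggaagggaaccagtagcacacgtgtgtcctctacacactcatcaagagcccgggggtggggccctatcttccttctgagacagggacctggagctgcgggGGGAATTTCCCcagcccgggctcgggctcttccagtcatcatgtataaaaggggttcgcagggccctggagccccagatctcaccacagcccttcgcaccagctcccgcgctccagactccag
Nfkbia: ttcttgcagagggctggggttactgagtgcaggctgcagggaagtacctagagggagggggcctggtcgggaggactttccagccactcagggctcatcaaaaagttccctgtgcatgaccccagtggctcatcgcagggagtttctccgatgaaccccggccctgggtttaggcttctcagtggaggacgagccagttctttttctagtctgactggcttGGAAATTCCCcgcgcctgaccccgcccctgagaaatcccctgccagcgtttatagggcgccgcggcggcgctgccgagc
Tnfaip3: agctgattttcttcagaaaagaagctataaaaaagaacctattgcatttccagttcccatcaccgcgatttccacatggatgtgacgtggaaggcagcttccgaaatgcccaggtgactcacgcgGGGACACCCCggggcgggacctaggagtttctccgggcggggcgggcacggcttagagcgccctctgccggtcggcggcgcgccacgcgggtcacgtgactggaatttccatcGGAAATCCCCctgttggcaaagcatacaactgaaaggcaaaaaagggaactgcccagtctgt

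Counted from the start, with negative positions before it, the first match begins at -71 in Cxcl1, -73 in Cxcl3, -29 in Nfkbia and -125 in Tnfaip3, where the last begins at -12. Of the 29 genes called lower in the acute phase, IL-6, CC, CXC and NF-kB lists, 23 had a window in the RefSeq table, and 10 of these genes held a match, against 9.55% of all 27025 genes of the table. By list, 7 of 9 NF-kB genes, 2 of 2 CXC chemokines, 1 of 8 acute phase genes and 1 of 4 IL-6 genes held it. By windows, 12 of 28 (42.9%) held a match, against 8.46% of all 32851. The NF-kB list was made up of feedback genes and targets of NF-kB, and its members that were not called were not counted separately. The shares therefore do not link a match to the fall. A match in the letters is a description of the window and not a measured binding site.

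Of 20 tested genes of the interleukin 6 family and its STAT3 feedback, 4 fell (7.16% of all symbols did), with a median change of -0.84. Besides Bcl3 these were Pim1, a survival kinase induced by STAT3 (-1.25, adjusted p = 0.00149), Cebpb, a transcription factor of the acute phase response (-0.82, adjusted p = 0.00104), and the kinase Jak2 (-0.67, adjusted p = 0.00774). Cebpb was at 0.94 to 1.80 in P1 and 0.35 to 0.72 in P6. Il6 was at -7.55 and -7.63 in P1 replicates 1 and 2, at -3.77, -1.0 and 0.00 in replicates 3 to 5, and between -8.00 and -6.67 in P6, and was not called (-3.31, adjusted p = 0.144). The receptor chains Il6ra and Il6st changed by 0.07 and 0.20, and Stat3 by -0.52, with none called. The list held 1 lower gene of 19 without P1 replicates 3 to 5.

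Of 35 tested genes of hypoxia and glycolysis, 14 fell (7.16% of all symbols did) and the others were not called. The changes ranged from -2.88 to -0.04 with a median of -0.55. Slc2a1, the glucose transporter GLUT1, stood at 2.03, 1.98, 2.29, 2.13 and 2.09 in P1 and at 1.08, 1.11, 1.26, 0.82 and 0.93 in P6. The spread within a group was small beside the gap, and the change was -1.06 ± 0.12 (2.09-fold, adjusted p = 7.85e-06). Hexokinases, which trap glucose in the cell, fell too. Hk1 was at 1.14, 1.49, 0.99, 1.78 and 1.40 in P1 and -0.44, -0.24, 0.18, 0.34 and -0.13 in P6, a change of -1.42 ± 0.17 (adjusted p = 1.1e-05), and Hk2 changed by -1.33 ± 0.26 (adjusted p = 0.00109).

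Phosphofructokinase, the rate-controlling step of glycolysis, fell in its liver and platelet forms Pfkl (-0.78) and Pfkp (-0.83) and in its activating enzyme Pfkfb3 (-1.25). Further along the pathway Eno1 (-0.46), Eno2 (-0.87) and Pkm (-0.55) fell, while Gapdh (-0.33), Ldha (-0.30) and Aldoa (-0.41) were not called. Among HIF targets, the mitophagy receptor Bnip3 was at 2.68 to 3.29 in P1 and 1.51 to 2.27 in P6 (-1.14 ± 0.20, adjusted p = 0.00038), and Ankrd37 and the oxidoreductase Ero1a fell by 1.60 and 1.23. The classical targets Vegfa (-0.66, adjusted p = 0.105) and Car9 (-0.36, adjusted p = 0.525) were not called. Hif1a, the oxygen-regulated HIF subunit, was at -0.28, 0.62, -0.11, 0.67 and 0.09 in P1 and -1.46, -1.10, -1.15, -0.05 and -1.08 in P6, a change of -1.17 ± 0.27 (adjusted p = 0.00382) in which P6 replicate 4 overlapped P1. Epas1 (HIF-2 alpha) fell by 0.48 (adjusted p = 0.00936) and Vhl was not called (-0.07, adjusted p = 0.762). Of 3 tested Epas1 probes only this 1 was called, and their changes ranged from -3.06 to -0.48. With the 75th percentile over all probes 7 members were called, and without P1 replicates 3 to 5 the number was 4, with a median of -0.56. Among the calls that ended there were Hk2, Pfkfb3, Ankrd37, Hif1a and Epas1 (adjusted p = 0.0304, 0.0143, 0.0286, 0.0484 and 0.138). Their changes in that fit were -1.16, -1.36, -1.60, -1.14 and -0.42.

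Of 30 genes of the NRF2 and glutathione response, 6 fell and 1 rose (7.16% and 5.04% of all symbols did), with a median of -0.39. Hmox1, haem oxygenase, was at 1.51 to 1.86 in P1 and 0.35 to 0.67 in P6 (-1.21 ± 0.17, adjusted p = 4.79e-05). Slc7a11, the cystine importer that feeds glutathione synthesis, fell at least 2.31-fold (adjusted p = 1.22e-05) and the efflux pump Abcc1 by 1.55 (adjusted p = 0.00021; 0.0134 without P1 replicates 3 to 5). Gpx3, a secreted glutathione peroxidase of kidney tubule, was the gene that rose (0.71 ± 0.16, adjusted p = 0.00355). The zinc-binding metallothioneins Mt1 and Mt2 fell by 0.83 and 0.92, and the zinc exporter Slc30a1, regulated with them, by 1.1. Without P1 replicates 3 to 5, 9 members of the NRF2 list fell and none rose, Gpx3 being at 0.79 (adjusted p = 0.0267), while Mt1, Mt2 and Slc30a1 were not called (adjusted p = 0.13, 0.0524 and 0.215). Under the 75th percentile over all probes the NRF2 list held 4 lower genes.

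Growth factor pathways changed in part. Of 32 tested TGF-beta and BMP genes, 7 fell and 2 rose (7.16% and 5.04% of all symbols did), with a median of -0.84. Tgfb1 itself stood at -3.87, -3.66, -2.95, -2.74 and -2.91 in P1 and at -4.47 to -4.09 in P6 (-1.01 ± 0.24, adjusted p = 0.00479). Its receptor Tgfbr1 fell by 0.93, its signal transducer Smad3 by 1.34 and the BMP target Id2 by 1.56. In the other direction Bmp4 rose by 1.89 (adjusted p = 0.00161) and Bmp7, which maintains nephron progenitors, by 1.82 (adjusted p = 0.00153). Without P1 replicates 3 to 5 both rises remained called and none of the falls was, and the median of the list turned to 0.11.

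Falls outside these lists included Ptpn14, a tyrosine phosphatase that restrains the growth regulator YAP. Its levels were -1.76, -1.57, -1.75, -1.87 and -2.07 in P1 and -5.0, -4.88, -4.88, -4.81 and -5.04 in P6. The values of each group were tightly bunched, and the change of -3.12 ± 0.25 (8.68-fold, adjusted p = 6.08e-08) was -3.25 without P1 replicates 3 to 5. Hcar2, a receptor for niacin and ketone bodies, fell at least 7.73-fold (adjusted p = 0.000116; 0.0104 without those replicates), and Abca1, which exports cholesterol from the cell, at least 4.08-fold (adjusted p = 7.31e-06). Of 17 tested kidney lineage and tubule genes, 1 fell and 1 rose (7.16% and 5.04% of all symbols did), with a median of -0.11. Of 3 distal nephron and 2 proximal tubule markers 1 and 0 were called. Aqp3, a water channel of the collecting duct, was at -3.84 to -3.49 in P1 and -6.64 to -5.79 in P6 (-2.57 ± 0.30, adjusted p = 9.28e-06), and Nat8, an acetyltransferase of the proximal tubule, fell by 2.43 (adjusted p = 2.11e-06). C3, the central complement component, fell by 2.08, from -0.53 to 0.96 in P1 to -1.92 to -1.55 in P6 (adjusted p = 4.25e-05). In the same list the membrane regulator Cr1l rose by 1.14 (adjusted p = 0.000126), and C1s1 fell by 0.68 (adjusted p = 0.00623; 0.0594 without P1 replicates 3 to 5).

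Of the 15 largest rises, 9 were above background on no P1 array, B4galnt2, Tspan32 and Fthl17e were on 1, Defb41 on 3, and Afp and Lurap1l on all 5. Many of the 15 largest falls likewise ended below background. Ccl3, Mmp8, Mmp12, Serpina3n, Serpina3i, Hp, Hcar2 and S100a8 were above background on no P6 array. Mageb4, a cancer-testis antigen of the melanoma antigen family, had levels of -8.89, -8.89, -6.81, -7.84 and -9.50 in P1 and of -2.33, -2.62, -2.52, -2.80 and -2.42 in P6. No P1 array and all 5 P6 arrays were above background, so the rise was at least 17.0-fold (adjusted p = 3.34e-09). Ctag2l1 and Ctag2l2, mouse relatives of the human NY-ESO-1 antigen family, rose at least 4.29-fold and at least 4.35-fold (adjusted p = 1.76e-07 and 3.4e-08). Slxl1, a spermatid gene of a multicopy X-linked family, rose at least 3.50-fold (adjusted p = 1.38e-08), and Fthl17e, a germ cell relative of ferritin heavy chain, by 3.63 (adjusted p = 3.68e-08).

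These 5 genes lie on the X chromosome, as none of the 15 largest falls does. Of 410 tested X-linked symbols, 57 (13.9%) were higher and 15 (3.66%) were lower. Over the 19 autosomes the share of genes called higher ran from 2.22% to 8.05% and the share called lower from 3.97% to 11.3%. The chromosome was looked at after the largest rises had been seen, and the shares are given as a description with no test. X-linked genes called higher included further germ cell families, namely Fthl17f (at least 1.81-fold), Xlr3b (2.35 ± 0.14, adjusted p = 2.16e-09), Xlr4a (1.98 ± 0.20, adjusted p = 1.12e-06), Xlr4b (2.09 ± 0.21), the mRNA export factor Nxf3 (3.30 ± 0.24, adjusted p = 2.2e-08) and Mageb1 (1.41 ± 0.26, adjusted p = 0.000712). Xlr4a was at -5.82 to -5.27 in P1 and -4.02 to -3.36 in P6. These are families of near-identical copies, and cross-hybridisation among their probes was not tested. Rhox5, a homeobox gene that RENCA cells already carried at high signal, stood at 3.51, 3.45, 3.41, 3.13 and 2.92 in P1 and at 3.75 to 4.03 in P6 (0.61 ± 0.15, adjusted p = 0.00584).

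Of 13 tested early embryo and germline genes, 5 rose (Mageb4, Xlr4a, Mageb1, Dppa5a and Rhox5), 1 fell, the deubiquitinase gene Usp17la (-1.40, adjusted p = 0.00179; 0.145 without P1 replicates 3 to 5), and the median change was 0.34. Dppa5a, a marker of pluripotent cells, was above background on no P1 array and on 4 of 5 P6 arrays (adjusted p = 5.54e-05). The Zscan4 genes of early embryos, Zscan4a, Zscan4b, Zscan4c and Zscan4f, had changes of 0.26, 0.42, 0.00 and 0.34, and none was called. Among all symbols, 5.04% were higher and 7.16% lower with every sample kept. Without P1 replicates 3 to 5, 3 of the 13 genes rose.

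Other large rises encode neural, muscle and fetal proteins. Ctxn3, cortexin 3, known from kidney and brain, had levels of -7.71, -7.41, -7.47, -7.62 and -7.66 in P1 and of -2.58, -3.18, -2.59, -1.95 and -3.05 in P6. It went from above background on no array to all 5, at least 15.5-fold (adjusted p = 1.27e-07). Chrna1, the alpha subunit of the muscle acetylcholine receptor, was at -8.97, -8.77, -7.23, -5.87 and -7.57 in P1 and at -3.11 to -2.69 in P6, a rise of at least 13.3-fold (adjusted p = 2.79e-07). Along with it the muscle regulator Pax3 rose by 2.15 and Cavin4, a caveolar protein of muscle, by 2.79, while the fast-fibre actinin Actn3 fell, at least 1.18-fold. Thus 3 of 10 tested skeletal muscle genes rose and 1 fell, while 5.04% of all symbols rose and 7.16% fell. Without P1 replicates 3 to 5, and likewise without replicates 1 and 2, Actn3 was above background on too few arrays to be tested.

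Robo2, a receptor for Slit guidance cues that also positions the ureteric bud, rose at least 4.77-fold (adjusted p = 7.56e-07), and the neural adhesion protein Cntn1 at least 8.57-fold (adjusted p = 2.28e-06). Afp, alpha-fetoprotein, the main plasma protein of the fetus, was at -3.25, -3.35, -3.73, -3.54 and -3.87 in P1 and at 0.35, 0.17, 0.11, 0.20 and 0.32 in P6. It was detected on all 10 arrays, and the change of 3.78 ± 0.24 (13.7-fold, adjusted p = 3.97e-09) was seen on each shared slide, at 3.35, 3.55 and 4.05. Defb41, a beta-defensin, rose by 4.33 and the protease inhibitor Cst12 at least 6.22-fold. B4galnt2, which adds the terminal sugar of the Sd(a) blood group antigen, rose by 4.12 (17.4-fold, adjusted p = 1.38e-08), the tetraspanin Tspan32 by 3.91 (15-fold, adjusted p = 1.38e-08) and Lurap1l by 3.60 (adjusted p = 5.72e-08). All 15 of the largest rises kept their call when any single sample of P1 or P6 was left out. Because they had been chosen as called genes whose groups did not overlap, this is no separate support.

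Some genes of immune signalling rose. Il34, a ligand of the macrophage receptor CSF1R, was at -4.42, -4.27, -2.47, -2.32 and -2.70 in P1 and at -0.66, -0.33, -0.49, -0.52 and -0.57 in P6 (2.72 ± 0.38, adjusted p = 5.45e-05). Its P1 values split as those of Adgre1 did, but in P6 it was higher than in any P1 sample. Tnfsf13b, the B cell survival factor BAFF, was at -7.01, -6.60, -5.99, -5.0 and -5.51 in P1 and -3.28 to -3.07 in P6 (2.88 ± 0.26, adjusted p = 2.42e-07). Csf2, the granulocyte and macrophage growth factor GM-CSF, moved the other way, at least 2.92-fold lower (adjusted p = 0.00756). Without P1 replicates 3 to 5 Csf2 was above background on too few arrays to be tested. Of 45 tested interferon-stimulated genes, 3 rose, namely Ifi44 (1.88, adjusted p = 0.00734) and the GTPases Ifi47 (1.46, adjusted p = 3.11e-05) and Irgm1 (1.13, adjusted p = 0.00557), and the median was 0.11, while 5.04% of all symbols were higher. Of these, 1 was called without P1 replicates 3 to 5.

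Genes singled out by the study were looked up here, though this comparison is not the one the study made. The study chose its signature genes by their change from P0 to P6. It took Saa2 and Cfb from the signature of its kidney-to-lung metastasis lines. The VHL-knockout genes were reported for late lung metastasis lines of both routes, and the KPT lines were said to lack clear clustering by them. Of its 14 KPT signature genes, 5 rose (Arhgap33, Dyrk4, Il34, Mtmr7 and Tprg), with a median of 0.95, but that signature was selected on samples of this series that include P6 samples of this route and is not independent evidence of direction. Dyrk4 rose at least 1.97-fold (adjusted p = 8.37e-07), Tprg by 2.90 and Mtmr7 by 2.88. The call of Dyrk4 ended when dim signals were raised to the lowest signal above background. Of 4 markers that the study took from VHL-deficient cells, Tnfsf13b and Ppef1 (1.61 ± 0.35, adjusted p = 0.0028) rose, while Postn (-1.05, adjusted p = 0.602) and Samsn1 (-0.32, adjusted p = 0.706) were not called. Complement factor B, Cfb, had levels of -8.96, -8.39, -6.65, -5.09 and -5.23 in P1 and -6.49, -6.31, -6.25, -6.37 and -8.04 in P6. The groups overlapped and no difference was called (0.17 ± 0.72, adjusted p = 0.895). The stem-like markers Cd44 (-0.31), Nt5e (0.95) and Aldh1a1 (0.75) were not called either.

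**Figure D4:**
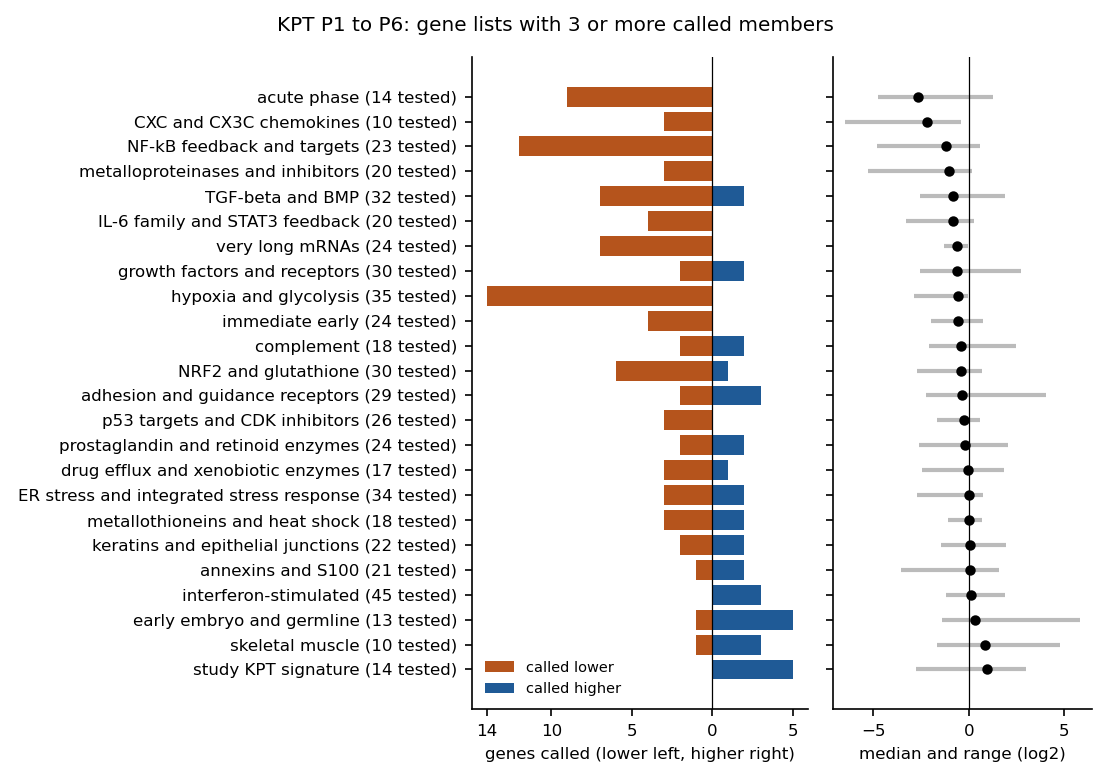
Left, number of genes called lower (orange, to the left of 0) and higher (blue, to the right) at KPT P6 in each gene list with 3 or more called members. Right, median (point) and range (line) of the P6 minus P1 change (log2) over the tested members, where acute phase, chemokine and NF-kB lists have the lowest medians and only lower calls.

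Proliferation and housekeeping lists showed few calls (5.04% of all symbols were higher and 7.16% lower). None of 32 cell cycle genes and none of 69 ribosomal protein genes was called in limma, with 6 and 1 of them at an unadjusted p under 0.05, and their medians were -0.04 and 0.04. Of 33 DNA replication genes, Gins1 (0.79, adjusted p = 0.00886) and Tk1 (0.57, adjusted p = 0.00716) rose, and without P1 replicates 3 to 5 neither was called (adjusted p = 0.144 and 0.23). Among 46 respiratory chain genes Ndufs8 rose (0.57, adjusted p = 0.0028; 0.2 without those replicates). Of 18 genes of MHC class I presentation none was called, with 5 at an unadjusted p under 0.05, all higher.

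RNA balance was compared as well. The index of 24 very long mRNAs against 69 ribosomal protein mRNAs was -6.47 ± 0.44 in P1 and -7.21 ± 0.59 in P6 (SD, n = 5 each), a difference of -0.74 that did not pass an exact 2-sided permutation test (p = 0.0635, the smallest possible being 0.00794). Of the very long mRNAs themselves, 7 of 24 were lower (7.16% of all symbols were), among them Utrn and Dst. Utrn was above background on too few arrays to be tested without P1 replicates 1 and 2. With the index as a covariate 1362 probes were called, 663 higher and 699 lower. Its part in the gene results was not tested further.

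The kidney route was set against the tail vein route (T-LM, in which cells injected into a tail vein were recovered from the lung), which has 5 P1 and 4 P6 samples, by testing the difference between the P1 to P6 changes. Of 13182 symbols, 200 (1.52%) differed. Several of the inflammatory genes that fell in KPT were among them. Mmp12 went from -3.65 to -8.30 in KPT and from -8.02 to -3.88 in T-LM, a difference of change of -8.78 (adjusted p = 0.000101). Cxcl3 went from -0.65 to -3.82 in KPT and from -2.52 to -1.14 in T-LM (-4.56, adjusted p = 7.36e-07). Lcn2 in T-LM stood at 2.97 in P1 and 2.95 in P6, and its difference of change was -2.95 (adjusted p = 0.00356). Those of Wfdc17, Ccl3, Mmp8, Cxcl5 and Tnfaip3 were -8.92, -7.96, -7.77, -3.83 and -1.76, with adjusted p between 0.00112 and 0.00965. The difference between routes was not fitted without KPT P1 replicates 3 to 5, although Wfdc17, Ccl3, Mmp8, Mmp12 and Tnfaip3 lost their KPT call without them. Macrophage markers were not compared between the routes.

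For Saa3 (-2.74, adjusted p = 0.194), Serpina3n (1.70, adjusted p = 0.153) and Ptpn14 (-0.11, adjusted p = 0.938) no difference between the routes was called, nor for Mageb4 (1.94, adjusted p = 0.0567), Ctxn3 (0.70, adjusted p = 0.72) and Afp (-1.04, adjusted p = 0.192). Among the rises, Tspan32 (2.68, adjusted p = 6.8e-05) and Tnfsf13b (2.34, adjusted p = 0.000154) rose more in KPT. B4galnt2 (-2.96, adjusted p = 0.000233) and Ctag2l2 (-2.85, adjusted p = 0.00106) rose more in T-LM, where B4galnt2 went from -7.88 to -0.80. One T-LM P1 sample has a title without a route, and without it 249 instead of 280 probes differed.

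Between the ends of the route the genes followed different courses. In the order P0, P1, P2, P3, P4, P5 and P6, the mean level of Saa3 was -2.93, 0.55, -2.32, -2.92, -2.62, -4.53 and -4.21, so that P1 was the high point and P0 lay below it. Serpina3n (-7.21, -4.41, -6.92, -8.37, -8.88, -8.63 and -9.02) and Ptpn14 (-3.47, -1.80, -3.56, -3.98, -4.23, -4.78 and -4.92) peaked at P1 too. Wfdc17 was uneven, at -8.25, -0.99, -7.92, -8.25, -4.47, -2.63 and -7.01, with P5 samples from -5.92 to 1.73. Mageb4 had higher means at each passage from P2 on (-8.16, -8.39, -5.49, -4.69, -4.14, -2.83 and -2.54), as did Chrna1 (-8.13, -7.68, -6.44, -5.79, -4.69, -4.00 and -2.87), whereas most of the difference in Afp (-6.47, -3.55, -1.22, -0.15, -0.18, 0.06 and 0.23) lay before P3. Steps between these passages were not tested.

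**Figure D5:**
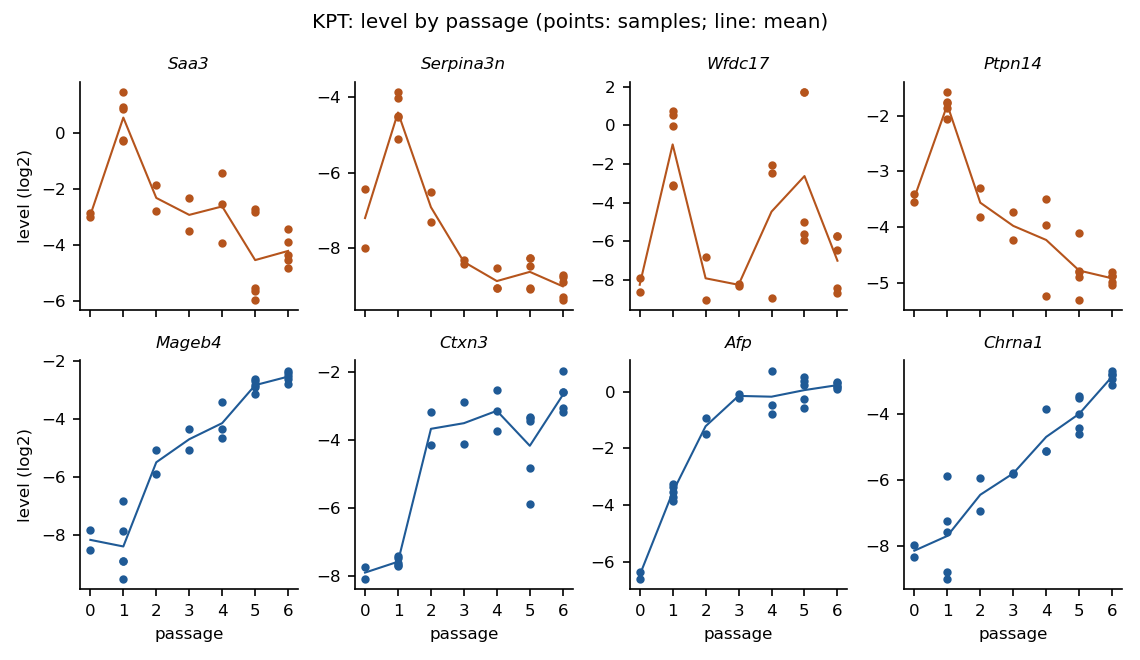
Level (y axis, log2) by passage of the kidney route (x axis; P0 n = 2, P1 n = 5, P2 n = 2, P3 n = 2, P4 n = 3, P5 n = 5, P6 n = 5), with a point for each sample and a line through the means. Saa3, Serpina3n and Ptpn14 peak at P1, Wfdc17 varies between samples of a passage, and Mageb4, Ctxn3, Afp and Chrna1 are low at P0 and higher from P2 on.

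Over all called genes the same contrast was visible, given as a description because the genes were chosen by their P1 and P6 means. The 875 lower genes had a median level of -3.67 in P0, -2.91 in P1, -4.03 in P2 and -3.97 in P6, and the P0 mean was nearer to P6 than to P1 for 652 of them (74.5%). The 615 higher genes had medians of -3.48 in P0, -3.75 in P1, -2.95 in P2 and -2.61 in P6, and P0 was nearer to P6 for 274 (44.6%).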

How the data were processed

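Total RNA of 65 samples was amplified, labelled with Cy5 and hybridised to 70 Agilent mouse arrays in 1 colour, and the 10 arrays of KPT P1 and KPT P6 are compared here. The deposited scanner files hold, per the file headers, intensity values that Agilent Feature Extraction (11.0.1.1 on 62 arrays, 12.0.2.2 on 8) had background-subtracted and detrended within each array. The authors also deposited log2 values for the series, which served as an alternative. Control spots (3671 of 62976) and outlier-flagged spots were left out, spots of a probe were averaged, and each array's 75th percentile over the 12209 probes well above background on all arrays was subtracted after taking log2. Outlier spots removed Gsr in P6 replicate 3, Akr1c18 in P1 replicate 4 and Col1a1 in P1 replicate 5. A probe was tested if well above background on at least 2 of the 24 kidney-route and P0 arrays of the first set. All 24 were fitted with limma 3.58.1 (R 4.3.3), the contrast was P6 minus P1, and p-values were adjusted by Benjamini-Hochberg over all probes. For each symbol the probe with the highest mean level was used.

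Of 55681 probes, 28026 were given a symbol by matching their accession in the scanner files to the RefSeq genes. Where every array of a group was below background, the change is given as at least N-fold against the lowest signal among probes above background. The number of arrays limits the precision. The difference between routes was the interaction of passage and route in limma. Genes named are the 15 largest rises and 15 largest falls among called, non-overlapping genes with an established name (predicted genes, Rik clones and unnamed loci were passed over) detected on all 5 arrays of the higher group, up to 4 called members of each list with the largest change, and genes named by the study. Other list members and the X-linked genes were named after their values were seen. The members and lists were chosen with earlier results of these data known. Scaling, background correction, dim-probe filters, slide, replicate number, RNA balance and single samples were varied. For normexp (offset 50) the median spot signal was used in place of the mean. The fit was tested on simulated data. The genome build of the array design is not given in the sources used here. Promoter windows and chromosomes came from RefSeq tables (GRCm38.p6). Some genes of the lists are not reported here.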

Additional observations from a re-analysis of the deposited data

Results flagged for a closer look

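In 15 of the 330 groups of P1 or P6 values checked, 1 sample lay far from the others, where chance flags about 1 in 20 groups. At P6, replicate 5 was apart for C1s1 (-2.39, the others -1.85 to -1.72), Cfb (-8.04, the others -6.49 to -6.25), Cp (0.13, the others 0.59 to 0.72) and Orm2 (-2.55, the others -1.56 to -1.28). P6 replicate 4 was apart for Akr1c18 (-2.40), Hif1a (-0.05, the others -1.46 to -1.08) and Itih4 (-5.33, the others -4.94 to -4.87). P6 replicate 1 was apart for Esrp1 (-3.15), Pfkfb3 (-2.51) and Tprg (-2.90) and replicate 2 for Serpina3i (-7.65). At P1, replicate 5 was apart for Pax3 (-6.91), replicate 1 for Dll4 (-5.50), replicate 2 for Ero1a (1.35, the others 0.33 to 0.54) and replicate 3 for Krt8 (1.60, the others 1.13 to 1.24).

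The P1 to P6 change differed between the kidney and tail vein routes, by the interaction test in limma, for 22 of the 165 genes named in the text, with adjusted p from 7.36e-07 to 0.00965. The kidney change was lower by the log2 difference given for Ccl6 (-10.23), Ccl9 (-9.03), Wfdc17 (-8.92), Mmp12 (-8.78), Il1b (-8.74), Ccl3 (-7.96), Mmp8 (-7.77), Cxcl3 (-4.56), Cxcl5 (-3.83), Csf2 (-3.26), Abca1 (-3.13), B4galnt2 (-2.96), Lcn2 (-2.95), Nt5e (-2.87), Ctag2l2 (-2.85), Id2 (-2.68), Gadd45b (-2.08), Ier3 (-1.79) and Tnfaip3 (-1.76). It was higher for Tspan32 (2.68), Tnfsf13b (2.34) and Gpx3 (1.28). Ccl6, Ccl9, Il1b and Nt5e were not called between P1 and P6 in the kidney route itself. The interaction was not fitted without KPT P1 replicates 3 to 5.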

How the results depend on the processing

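Of the 130 called genes followed through the alternatives, none changed sign in a fit that tested it. Against 2577 probes called (1008 higher, 1569 lower), the lower count was 890 with the 75th percentile over all probes. With no filter on dim probes 1729 were called (596 higher), and with probes above background on all arrays of the fit 1714 (612 higher). Raising dim signals to the array's lowest signal above background gave 2247 (740 higher, 1507 lower). That ended the calls of Mmp12, Cldn1, Bmp4, Csf2, Utrn, Actn3, Dyrk4, Sema3a, Rgs5, Saa2 and Epas1, 11 of the 130 followed genes. Slide as a fixed block left 0 called (0 higher, 0 lower; 7683 at an unadjusted p under 0.05), and the 3 shared slides alone gave 97 (58 higher, 39 lower), with 6 arrays. The replicate block, with replicate number as a block, gave 1369 (524 higher, 845 lower), of which 1231 were shared; same-numbered samples correlated at -0.26 to 0.29 in their deviations, above 0.1 in 3 of 5 pairs, and 1 of 5 P1 samples correlated best with its own number, so the numbers were not taken as pairs. The RNA balance index as a covariate gave 1362 (663 higher, 699 lower), and array weights 3734. Leaving out single samples gave 1684 to 2281 called, 697 to 1039 higher and 987 to 1449 lower, the lowest without P6 replicate 1. Chosen after seeing the data, the fit without P1 replicates 3 to 5 gave 1337 (780 higher, 557 lower; 1021 shared), and that without replicates 1 and 2 gave 2100 (662 higher, 1438 lower). The fits by slide reduce residual degrees of freedom or arrays, but with slide as a fixed block some list medians moved as well. The median was -0.06 against -0.84 in the main fit for TGF-beta and BMP genes. It was 0.07 against -0.91 for interstitial collagens and 0.26 against -0.82 for matrix glycoproteins. Other lists moved less, with -2.25 against -2.63 for acute phase and -0.63 against -0.55 for hypoxia and glycolysis. The cause of the differences between settings was not tested. The difference between routes (280 probes) ranged from 171 to 377 without single samples. The RNA balance difference was -0.64 (exact permutation p = 0.0159) in the deposited series values and -0.53 to -0.89 without single samples (-0.89, p = 0.0397, without P1 replicate 3).

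Calls lost when single samples were left out, beside those in the text, include Epas1, Mt1, Ifi44 and Gins1 (9 of 10 samples each), Csf2 and Tk1 (8), Jak2 (7), Hif1a, Slc30a1, C1s1 and Dst (6), Id2 and Irgm1 (5), Nfkbiz and Gpx3 (3) and Ndufs8 (P6 replicate 1). The X-linked share called higher was 4.89% to 17.4% over settings other than the fits by slide as a fixed block or within slides, where it was 0% and 2.2%. The autosomal share was 1.48% with no filter on dim probes, the setting of the 4.89%. It was 5.70% with probes above background on all 5 arrays of P1 or of P6, the setting of the 17.4%. In the fits by slide it was 0% and 0.35%.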

Other observations

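Of 24 tested immediate early genes, 4 fell and none rose, with a median of -0.54 (7.16% of all symbols were lower). The genes that fell were Fosl1, an AP-1 subunit, from -3.48 to -2.26 in P1 to -4.79 to -4.03 in P6 (-1.56 ± 0.30, limma adjusted p = 0.000962), Ier3 (-1.68), the phosphatase Dusp4 (-1.09) and Jun (-0.55). Without P1 replicates 3 to 5 the median was 0.04 and these 4 genes were not called (adjusted p = 0.0989, 0.0623, 0.0186 and 0.0634). Their changes in that fit were -0.95, -1.27, -1.12 and -0.56. Of 26 p53 targets and cyclin-dependent kinase inhibitors, 3 fell, namely Cdkn1a, the inhibitor p21 (-1.43), Gadd45b (-1.68) and Plk2 (-1.31), and without those replicates 1 was higher and 1 lower of 25, with a median of -0.01.

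Of 22 keratin and epithelial junction genes, 2 rose and 2 fell (5.04% and 7.16% of all symbols did). Esrp1, a splicing regulator of epithelial cells, rose from -5.86 to -4.61 in P1 to -3.41 to -3.15 in P6 (1.87 ± 0.23, adjusted p = 1.13e-05). The tight junction gene Cldn1 rose by 1.68, while Cldn4 (-0.86) and the desmosomal gene Pkp2 (-0.63) fell. The calls of Cldn1, Cldn4 and Pkp2 ended without P1 replicates 3 to 5, with changes of 1.86, -0.47 and -0.47 (adjusted p = 0.0267, 0.244 and 0.074). In that fit 5 of 21 genes of the list were higher and none lower, with a median of 0.42. S100a4, a calcium-binding protein linked with metastasis, rose from 0.68 to 1.78 in P1 to 2.74 to 3.16 in P6 (1.61 ± 0.35, adjusted p = 0.00246), but was not called without P1 replicates 3 to 5 (1.12, adjusted p = 0.122). Matrix genes were mostly not called, and 7.16% of all symbols were lower. Of 13 interstitial collagen genes 1 fell (Col12a1, -0.91), as did 1 of 22 basement membrane genes (Lamc1, -1.08) and 1 of 27 matrix glycoproteins (Tnxb, -1.90). Without P1 replicates 3 to 5, Col12a1 and Lamc1 changed by -1.13 and -1.36 but were not called in limma (adjusted p = 0.0184 and 0.0197). The medians of these lists, -0.91, -0.57 and -0.82, became 0.54, 0.23 and 0.47 in that fit. There 2, 1 and 0 genes were higher and 0, 0 and 1 lower. Of 4 tested endothelial markers, 3 were not called and Vwf fell at least 2.37-fold (adjusted p = 0.000114; 0.0101 without those replicates), and the Notch ligand Dll4 fell at least 1.58-fold (adjusted p = 2.71e-06). Dll4 was above background on too few arrays to be tested without P1 replicates 1 and 2.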
